A study of Mus musculus with 30 samples.

Results

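Wild-type (WT) mouse dendritic cells given apoptotic Jurkat cells for 30 min were compared with untreated WT cells, gene by gene, across the whole count table. The libraries were chosen by their names alone, which gave 3 in each of these groups, 6 of the 30 in the series. The table held 25611 gene rows, of which 14808 passed a filter on low counts and were tested. The cells were bone marrow cells kept in FLT3L (200 ng/ml) for 6 to 7 days, a culture known to yield plasmacytoid and conventional dendritic cells. Jurkat is a human T-cell leukaemia line. Libraries used beside these were WT cells given ovalbumin (OVA) for 30 min, and untreated and 30 min Jurkat-treated cells with a knockout of Rubcn (KO). WT cells given Jurkat cells or OVA for 4 h are described by their levels only. KO cells given OVA and KO cells given Jurkat cells for 4 h entered the shared model of all 30 libraries, with 3 libraries a group. The labels do not say whether replicates came from separate mice, so every p-value measures only the spread between these libraries.

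Dendritic cells take up dying cells through receptors for phosphatidylserine and other surface signals, and can present peptides of the engulfed cell on MHC molecules. Contact with particles or ligands activates MAP kinase and NF-kB signalling, which induces immediate early genes, their feedback inhibitors and early cytokines. Rubcn encodes Rubicon, a protein of LC3-associated phagocytosis, in which LC3 is attached to the membrane of a phagosome after engulfment.

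The 6 libraries held 42324962 to 50805786 counts each. Dendritic cell genes were abundant in both groups, with Flt3, the FLT3L receptor, at a mean of 567 CPM (counts scaled to library size) untreated and 553 CPM with Jurkat cells. Siglech, a plasmacytoid marker, stood at 800.1 and 793 CPM. In untreated cells Rubcn stood at 98.9 CPM in WT and 72.8 CPM in KO, so its total count is a weak check of the genotype labels. How reads of the human cells were handled is not given in the sources, and T-lineage genes were followed for that reason. All 28 tested T-lineage markers summed to 325 ± 3.40 CPM untreated and 391 ± 4.52 CPM with Jurkat cells (SD, n = 3), a ratio of 1.20. The 15 of them under 1 CPM in untreated WT cells summed to 5.15 ± 0.148 CPM and 42.9 ± 0.797 CPM, a ratio of 8.33. These 15 were picked by their untreated level and could pass the filter through the Jurkat libraries alone, so their sum is a description with no test. It was 4.71 to 4.91 CPM with OVA and 21.8 to 32.2 CPM in KO cells given Jurkat cells. Bulk libraries cannot tell fewer cells of a type from less RNA per cell.

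At 30 min 2097 genes stood higher and 2150 lower in cells given Jurkat cells than in untreated cells, by edgeR's quasi-likelihood test at a Benjamini-Hochberg adjusted p (FDR) under 0.05. These made 14.2% and 14.5% of the genes tested. Every Jurkat library lay above every untreated library in 18.8% of the genes tested, and below in 19.6%. Most changes were small, and 420 rises and 38 falls reached 2-fold. The rises were of 2 kinds by the untreated level. Of all rises 461 stood under 1 CPM in untreated cells, with a median log2 fold change of 2.65, and 382 of them reached 2-fold. The other 1636 stood at 1 CPM or more, with a median log2 fold change of 0.22, and 38 of them reached 2-fold. Of the 461, 264 passed the filter on low counts only because of the libraries that held Jurkat cells. When scaling factors were taken from genes not called higher, 65.3% of 4465 calls were higher, against 49.4% of 4247. That choice leaves out the genes called higher with Jurkat cells in WT or KO and keeps those called lower. A shift toward higher calls is therefore built in, here and wherever this scaling is used below.

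**Figure D1:**
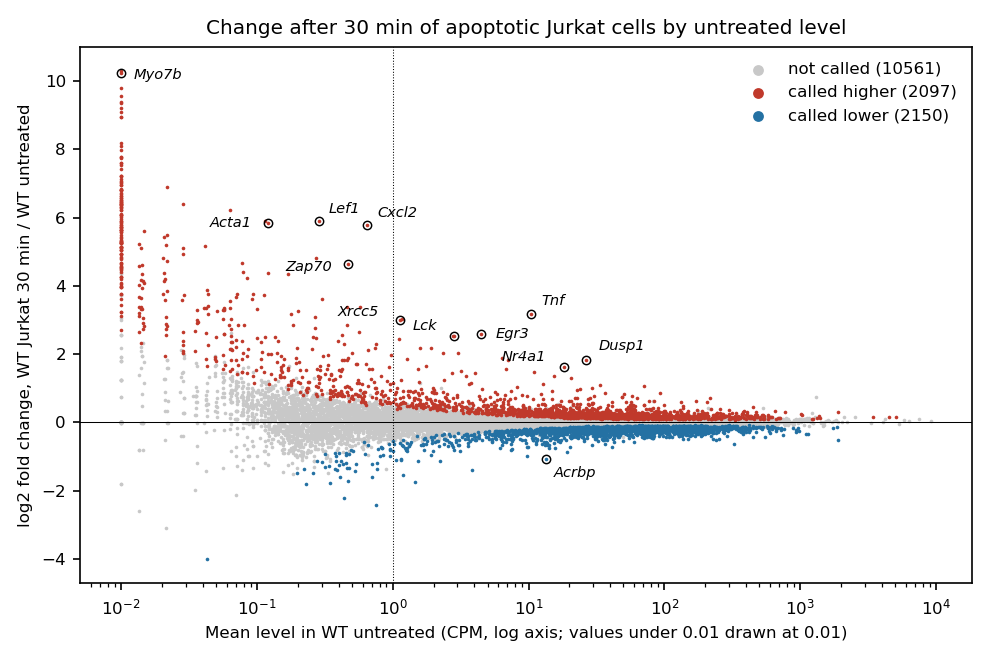
Log2 fold change of WT Jurkat 30 min against WT untreated (vertical axis) by the mean untreated level in CPM (horizontal log axis) for the 14808 genes tested, with 12 genes circled. Red points are the 2097 genes called higher, blue points the 2150 called lower and grey points the genes not called; large rises lie mostly left of the dotted line at 1 CPM.

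Among genes under 1 CPM in untreated cells, the 6 largest rises that reached 5 CPM were Myo7b, Lef1, Acta1, Cxcl2, Tspan7 and Zap70. Myo7b, a brush border myosin, had 1 count in all 3 untreated libraries and 1720 counts with Jurkat cells, a ratio of 1685 with an interval of 302 to 66580 (95%, counting error only). Lef1 (Entrez 16842, mm10 chromosome 3, 131110297 to 131224357), a transcription factor of thymocytes, stood at 0.245, 0.323 and 0.286 CPM untreated and at 16.4, 17.6 and 17.6 CPM with Jurkat cells. Zap70, the kinase next to the T cell receptor, stood at 0.557, 0.388 and 0.469 CPM untreated and at 11.8, 12.3 and 11.1 CPM with Jurkat cells. The 6 were named on condition that the groups did not overlap. With OVA the means of Lef1 and Zap70 were 0.153 and 0.389 CPM. Acta1, skeletal muscle actin, and Tspan7, a tetraspanin, reached means of 7.11 and 7.73 CPM. Cxcl2, a neutrophil chemokine, was the only one of the 6 that was also called higher with OVA.

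The 8 largest rises among genes at 1 CPM or more were Tnf, Itm2a, Xrcc5, Egr3, Gdf15, Lck, Rpl39l and Ptgs2. Tnf, Egr3, Gdf15 and Ptgs2 belong to the signalling and inflammation lists described further on. Lck, the kinase of T cell receptor signalling, rose from 2.40, 2.98 and 3.14 CPM to 15.9, 17.05 and 16.4 CPM (log2 2.53, SE 0.137, FDR 4.12e-14, edgeR). Xrcc5, a subunit of the DNA end-binding Ku complex, rose from 1.22, 1.36 and 0.837 CPM to 9.61, 9.26 and 8.28 CPM. Both genes, like all 8, were named on condition that the groups did not overlap. Itm2a, a membrane protein, reached a mean of 9.54 CPM, and Rpl39l, a copy of a ribosomal protein gene whose reads may be shared with its parent, 6.12 CPM. These 4 genes, Lck, Xrcc5, Itm2a and Rpl39l, had log2 fold changes of -0.14 to 0.19 with OVA, none of which passed the test.

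Gene models were compared between the kinds of call as a description with no test. Among the rises from under 1 CPM 9.33% were annotated as pseudogenes in RefSeq, against 3.30% of all tested genes under 1 CPM. In GENCODE 15.0% of these rises had a single exon, against 12.7%. These rises include the 264 that passed the filter only because of libraries with Jurkat cells, so their shares support nothing by themselves. Among the rises at 1 CPM or more 0.551% were pseudogenes, against 0.412% of all tested genes at that level, and 4.08% had a single exon in GENCODE, against 2.11%. Genes called lower had a median of 11 exons and rises at 1 CPM or more a median of 6. The median was 9 over tested genes at 1 CPM or more and 8 over all tested genes.

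Immediate early transcription factors rose in most cases: 18 of 24 rose and 0 fell, with a median log2 fold change of 0.54, against 14.2% higher and a median of 0.01 over all genes. Egr3 (Entrez 13655, mm10 chromosome 14, 70077445 to 70082613), a zinc finger factor induced by MAP kinase signalling, stood at 4.25, 4.48 and 4.78 CPM untreated and at 24.6, 27.01 and 30.4 CPM with Jurkat cells (log2 2.60, SE 0.0838, FDR 1.8e-19, edgeR). Nr4a1, an orphan nuclear receptor induced by antigen receptor and growth factor signals, rose from 16.96, 18.8 and 19.5 CPM to 54.5, 57.4 and 56.4 CPM (log2 1.61, FDR 1.8e-19, edgeR). In both genes every Jurkat library lay far above every untreated library, which was a condition for naming Egr3 among the largest rises.

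Fos, a subunit of the AP-1 transcription factor, stood at 64.5, 75.03 and 71.1 CPM untreated and at 148, 132 and 157 CPM with Jurkat cells (log2 1.05, SE 0.0803). Ier3, an immediate early regulator of cell survival, rose from 12.7 ± 0.807 CPM to 27.5 ± 1.83 CPM (SD, n = 3). Other members that rose were Egr2 (7.11 to 25.2 CPM), Atf3 (50.7 to 89.7 CPM), Jun (62.6 to 102 CPM) and Junb (172 to 264 CPM). Fosb, a further AP-1 subunit, stood at 8.92 CPM untreated and 7.53 CPM with Jurkat cells, and its FDR was 0.108 by edgeR. Nr4a3, Klf2, Klf4, Klf6 and Fosl1 did not pass the test either. At an unadjusted p under 0.05 1 member was lower. DESeq2 called 18 higher and 0 lower. T-lineage markers rose in the same libraries, and their part in these rises was not tested.

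Feedback inhibitors of the same pathways moved with them: 13 of 26 rose and 1 fell, with a median of 0.30. These were 50% and 3.85%, against 14.2% and 14.5% of all genes. Dusp1 (Entrez 19252, mm10 chromosome 17, 26505591 to 26508472), a phosphatase that switches off MAP kinases, stood at 24.6, 26.9 and 28.1 CPM untreated and at 96.3, 89.1 and 96.2 CPM with Jurkat cells (log2 1.82, SE 0.0662, FDR 2.68e-18, edgeR). Dusp2, a phosphatase of the same family, rose from 20.6 ± 1.39 to 51.02 ± 2.27 CPM, and Socs3, an inhibitor of cytokine receptor signalling, from 15.4 ± 1.21 to 39.4 ± 1.13 CPM. Zfp36, which binds and destabilises cytokine mRNAs, rose from 198, 222 and 227 CPM to 345, 346 and 368 CPM (log2 0.71). The groups did not overlap for Dusp1 or Zfp36. The member that fell was Dusp16, at 47.95 CPM untreated and 43.8 CPM with Jurkat cells.

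NF-kB is the factor downstream of Toll-like and TNF receptors. Of its targets and regulators 13 of 26 rose (50%, against 14.2% of all genes) and 0 fell, with a median of 0.16. Nfkbia, the inhibitor that NF-kB itself induces, rose from 88.8, 96.01 and 92.8 CPM to 169.6, 174 and 165 CPM (log2 0.87). Tnfaip3, a ubiquitin-editing inhibitor of NF-kB, rose from 58.1 ± 0.621 to 99.2 ± 3.34 CPM, and Zc3h12a, a ribonuclease of cytokine mRNAs, by 0.56 on the log2 scale. Ccrl2, a chemerin-binding receptor, rose by 1.05. The genes of the NF-kB subunits themselves, Rela, Rel, Relb, Nfkb1 and Nfkb2, did not pass the test, with log2 fold changes from -0.07 to 0.12.

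Of the cytokines and chemokines 19 of 38 rose (50%, against 14.2% of all genes) and 0 fell, with a median of 0.48. Tnf (Entrez 21926, mm10 chromosome 17, 35199367 to 35202007), a cytokine of acute inflammation, stood at 9.73, 11.5 and 10.2 CPM untreated and at 97.4, 102 and 87.8 CPM with Jurkat cells (log2 3.19, SE 0.102, FDR 1.8e-19, edgeR). Cxcl2 (Entrez 20310, mm10 chromosome 5, 90903899 to 90905938) stood at 0.957, 0.366 and 0.612 CPM untreated and at 35.8, 36.3 and 34.5 CPM with Jurkat cells (log2 5.78, SE 0.196). Cxcl1, also a ligand of Cxcr2, rose from 0.463 ± 0.106 to 4.84 ± 0.649 CPM. The libraries of these 3 genes did not overlap between the groups, which was a condition for naming Tnf and Cxcl2 among the largest rises.

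Osm, a cytokine of the interleukin 6 family, rose from 1.76 ± 0.171 to 5.53 ± 0.256 CPM. Ccl3 and Ccl4, inflammatory chemokines, rose from 6.35 to 23.6 CPM and from 3.03 to 12.5 CPM, and how reads were split with near copies is not known. Il10, an anti-inflammatory cytokine, rose from 0.268 to 2.31 CPM, and Il1b, an inflammasome substrate, from 23.98 to 47.5 CPM. Il6, Il12b, Il23a, Ifnb1 and Csf2 did not pass the test, and of these Il12b was the most abundant, at 18.5 CPM untreated and 24.5 CPM with Jurkat cells. Beside these genes, 15 monocyte and macrophage markers summed to 3810.0 to 4291 CPM untreated and 4479 to 4770.0 CPM with Jurkat cells. Of these 15 markers 4 were called higher (26.7%, against 14.2% of all genes), 1 without untreated replicate 2 or 3 and 2 without Jurkat replicate 3. The 13 neutrophil markers summed to 188 to 206 and 211 to 237 CPM, with 2 called higher (15.4%, near the 14.2% of all genes). Their part in the cytokine rises was not tested.

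Of the inflammatory mediators 7 of 19 rose (36.8%, against 14.2% of all genes) and 0 fell. Ptgs2, the inducible cyclooxygenase, rose from 1.91, 2.03 and 1.80 CPM to 8.27, 9.15 and 8.75 CPM (log2 2.19, SE 0.232). Gdf15, a stress-induced cytokine, rose from 2.80 ± 0.291 to 16.2 ± 1.01 CPM. Plaur, the urokinase receptor, rose by 0.53 on the log2 scale and Sod2, mitochondrial superoxide dismutase, by 0.16. Without untreated replicate 3 the list had 4 rises.

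**Figure D2:**
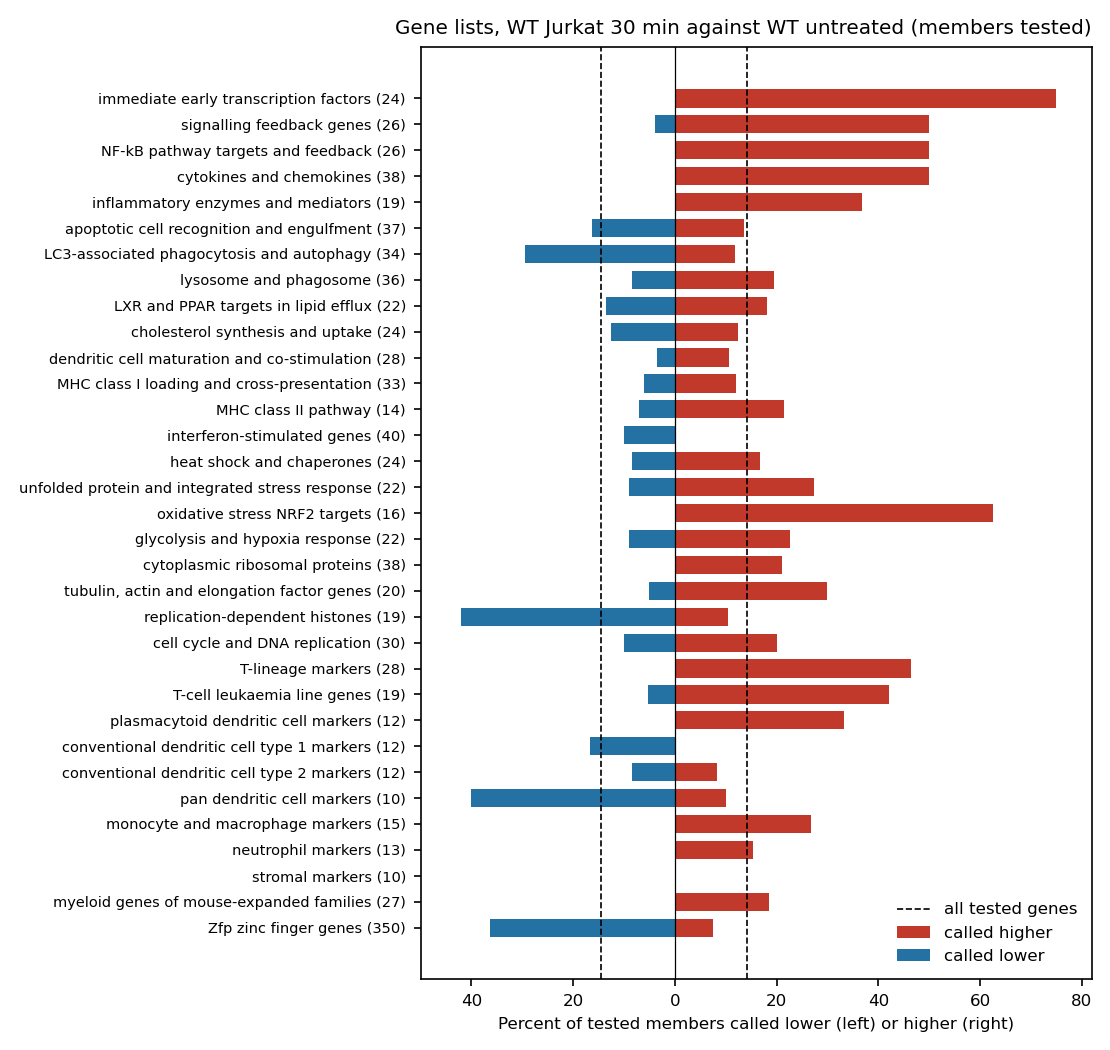
Percent of the tested members of each gene list called higher (red, right) or lower (blue, left) in WT Jurkat 30 min against WT untreated, for lists with at least 10 tested members (number in brackets). The dashed lines mark all 14808 genes, 14.2% higher and 14.5% lower; 18 of 24 immediate early factors lie to the right and 36.3% of Zfp genes to the left.

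Stretches just upstream of 5 of these genes are shown because each holds a match to the binding motif of a factor of these pathways. They are the 150 bases before the RefSeq start (GRCm38.p6), 5′ to 3′ on the gene's strand, with the match in capitals, and they were chosen after the matches were seen. Cxcl2 (chr5:90903749-90903898, plus strand) and Cxcl1 (chr5:90891095-90891244, plus strand) hold an NF-kB site that matches on both strands in overlapping positions. Nfkbia (chr12:55492648-55492797, minus strand) holds a further NF-kB site. Dusp1 (chr17:26508473-26508622, minus strand) holds a cyclic AMP response element (CRE, TGACGTCA), and Zfp36 (chr7:28379229-28379378, minus strand) a CArG box, the site of serum response factor.
Cxcl2: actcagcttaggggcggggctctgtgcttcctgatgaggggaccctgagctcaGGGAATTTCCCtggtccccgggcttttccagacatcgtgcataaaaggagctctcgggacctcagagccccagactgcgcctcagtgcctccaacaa
Cxcl1: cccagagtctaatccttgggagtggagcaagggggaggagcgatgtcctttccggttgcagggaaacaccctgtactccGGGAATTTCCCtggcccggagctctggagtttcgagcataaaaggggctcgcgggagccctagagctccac
Nfkbia: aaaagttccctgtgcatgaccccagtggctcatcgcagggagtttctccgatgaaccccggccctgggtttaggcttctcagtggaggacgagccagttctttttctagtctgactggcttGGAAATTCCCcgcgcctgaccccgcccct
Dusp1: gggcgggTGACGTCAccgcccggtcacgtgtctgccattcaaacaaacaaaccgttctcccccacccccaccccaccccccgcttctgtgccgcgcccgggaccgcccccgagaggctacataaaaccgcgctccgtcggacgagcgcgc
Zfp36: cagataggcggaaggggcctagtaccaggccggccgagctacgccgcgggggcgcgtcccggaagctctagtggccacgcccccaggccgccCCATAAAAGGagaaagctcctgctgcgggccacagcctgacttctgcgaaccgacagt
The matches lie 87 to 97 bases before the start in Cxcl2, 61 to 71 in Cxcl1, 20 to 29 in Nfkbia, 136 to 143 in Dusp1 and 49 to 58 in Zfp36. Motifs were searched on both strands of the 250 bases before the start in the 9318 tested genes with 1 RefSeq window. The NF-kB site was found in 4.64% of these windows, the CArG box in 1.21%, the CRE in 2.62% and the AP-1 site (TGANTCA) in 4.45%. Among genes called higher the shares were 4.82%, 1.56%, 4.23% and 4.37%, and among genes called lower 3.57%, 1.71%, 4.07% and 3.93%. Tnf, Nr4a1, Ccl3, Ptgs2, Junb and Atf3 were also searched and held no match to any of these motifs. Fos and Ier3 each held an NF-kB site that is not shown. A match is a description of letters and not a bound site.

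Both stimuli were set side by side at 30 min. WT cells given OVA differed from the same untreated libraries in fewer genes, 816 higher and 762 lower, or 5.51% and 5.15% of those tested. These 1578 calls became 903 without OVA replicate 1, 966 without OVA replicate 2, 907 without untreated replicate 2, 1043 without untreated replicate 3 and 833 in a fit of the compared libraries alone. Jurkat-treated cells differed directly from OVA-treated cells in 1765 genes higher and 1826 lower, or 11.9% and 12.3%. With scaling factors from genes not called higher 61.9% of the calls in this direct comparison were higher, against 49.1%. The shift is in the direction that this choice builds in.

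Tnf stood at 56.1, 55.2 and 51.1 CPM with OVA, between the untreated and the Jurkat libraries, and was higher with Jurkat cells than with OVA by 0.82 on the log2 scale (FDR 7.52e-08, edgeR). Cxcl2 stood at 22.1, 19.9 and 18.4 CPM with OVA, and also differed by 0.82 (FDR 5.12e-06, edgeR). Both genes rose in the OVA libraries too. The part of T-lineage RNA in the difference between the stimuli was not tested. Tnfaip3 stood at 96.2 CPM with OVA and 99.2 CPM with Jurkat cells, and Zc3h12a at 42.04 and 44.1 CPM, differences that did not pass the test. Of the 26 NF-kB genes 13 were called higher with Jurkat cells and 11 with OVA, and the direct comparison called 6 higher and 6 lower.

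Of the immediate early factors 18 of 24 were called higher with Jurkat cells, 5 higher and 2 lower with OVA, and 19 were higher in Jurkat than in OVA libraries. Egr3 stood at 7.32, 7.67 and 6.77 CPM with OVA, under every Jurkat library, a direct difference of 1.91 (log2, FDR 1.7e-16, edgeR). Fos stood at 71.8, 58.9 and 57.9 CPM with OVA, and its change with OVA did not pass the test (log2 -0.16, FDR 0.234, edgeR). Egr1, a zinc finger factor chosen after its values were seen, stood at 44.2, 53.1 and 50.1 CPM untreated, 80.3, 77.9 and 88.9 CPM with Jurkat cells and 23.7, 21.2 and 22.3 CPM with OVA. It rose with Jurkat cells (log2 0.75) and fell with OVA (log2 -1.13), and the 3 groups did not overlap.

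Dusp1 stood at 41.1, 36.1 and 35.9 CPM with OVA and differed directly by 1.32 (log2, FDR 4.48e-15, edgeR). Of 24 cholesterol synthesis and uptake genes 3 were higher and 3 lower with Jurkat cells (12.5% each, near the 14.2% and 14.5% of all genes). With OVA 10 of the 24 were higher and 0 lower, where the shares of all genes were 5.51% and 5.15%. In the direct comparison 10 were lower in Jurkat than in OVA libraries, where the share of all genes was 12.3%. Insig1, which holds back the sterol-sensing SREBP complex, stood at 91.1 CPM untreated, 112 CPM with Jurkat cells and 136 CPM with OVA. T-lineage markers were called higher in 13 of 28 with Jurkat cells and in 0 with OVA by edgeR. At an unadjusted p under 0.05 0 were higher and 1 lower with OVA. Members under 1 CPM could pass the filter through the Jurkat libraries alone, so that count supports nothing by itself.

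**Figure D3:**
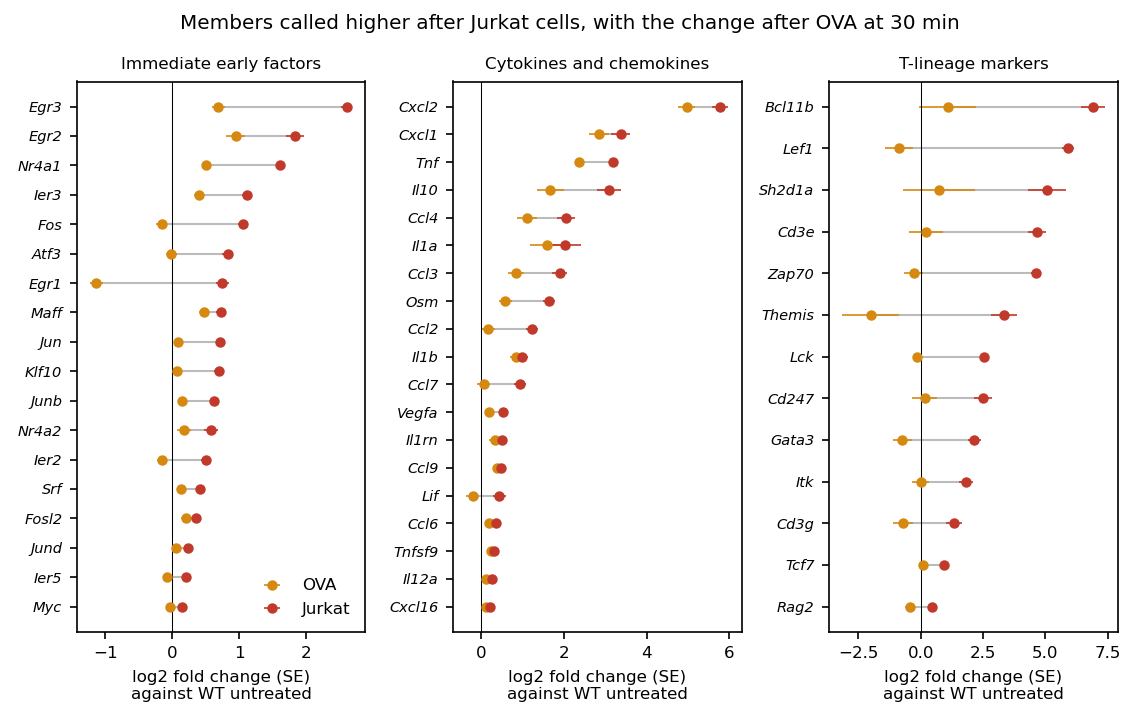
Log2 fold change against WT untreated after 30 min of Jurkat cells (red) and of OVA (orange), with SE, for the members of 3 lists called higher with Jurkat cells. Both sets share the 3 untreated libraries; Tnf lies at 3.19 and 2.37, while Egr1 lies at 0.75 and -1.13.

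Genes called lower changed little in size: their median log2 fold change was -0.21, at a median untreated level of 47.2 CPM. The 8 largest falls among genes at 5 CPM or more were Acrbp, Ppef2, Thap2, Zfp189, Zfp235, Degs2, Rad52 and Slc27a3. Acrbp (Entrez 54137, mm10 chromosome 6, 125049927 to 125063265), an acrosin-binding protein, fell from 13.1, 14.04 and 13.1 CPM to 5.73, 7.02 and 6.48 CPM (log2 -1.06, SE 0.0992, FDR 3.31e-09, edgeR). Thap2, a THAP domain protein, fell from 20.01, 19.02 and 18.5 CPM to 10.5, 10.8 and 10.3 CPM. Rad52, a recombination repair protein, fell from 15.7 to 9.30 CPM, and Ppef2, a phosphatase with calcium-binding EF hands, from 9.73 to 4.89 CPM. All 8 were named on condition that the groups did not overlap. With OVA Acrbp stood at 11.5, 10.4 and 12.6 CPM, below each untreated library and above each Jurkat library.

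Zinc finger genes with a Zfp symbol were a list added after the data were seen, because Zfp189 and Zfp235 were among these falls. Of these genes 127 of 350 were lower (36.3%) and 26 higher (7.43%), with a median of -0.12. The shares of all genes were 14.5% lower and 14.2% higher. The list was chosen on these samples and is not independent evidence of its direction. Most such genes encode DNA-binding proteins, and Zfp36, which rose, is an mRNA-binding exception. With OVA 21 of the 350 were lower and 20 higher, where the shares of all genes were 5.15% and 5.51%. The direct comparison called 121 lower and 13 higher in Jurkat than in OVA libraries, where the shares of all genes were 12.3% and 11.9%. Zfp790 stood at 20.5, 20.2 and 20.2 CPM untreated, 12.7, 12.2 and 11.9 CPM with Jurkat cells and 20.1, 20.5 and 18.8 CPM with OVA. Klhl42, a ubiquitin ligase adaptor, stood at 42.7, 28.9 and 46.1 CPM in these groups. The Zfp counts were 104 lower and 29 higher with scaling factors from genes not called higher. The rises numbered 13 without untreated replicate 3 and 17 without Jurkat replicate 1 or 2.

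Of the genes of apoptotic cell recognition and engulfment 5 of 37 rose and 6 fell, or 13.5% and 16.2%, near the 14.2% and 14.5% of all genes, with a median of 0.05. Crkl and Crk, adaptors in the Rac pathway of engulfment, fell by 0.33 and 0.19 on the log2 scale, and Elmo2, of the same pathway, fell by 0.18. Cd300a, an inhibitory phosphatidylserine receptor, rose from 250.3, 263 and 256 CPM to 286, 277 and 281 CPM. C1qa, C1qb and C1qc, the chains of an opsonin, rose by 0.31, 0.30 and 0.33. The rises numbered 8 and the falls 3 with scaling factors from genes not called higher. Without untreated replicate 2 or 3 they numbered 2 and 3, and 3 and 1 rises were left without Jurkat replicate 1 and 3.

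Of the genes of LC3-associated phagocytosis and autophagy 4 of 34 rose and 10 fell (11.8% and 29.4%), with a median of -0.02. Over all genes 14.2% rose and 14.5% fell. Nbr1, an autophagy receptor, fell from 132, 136 and 134 CPM to 106, 103 and 103 CPM (log2 -0.36), and Atg16l1, needed for LC3 attachment, fell by 0.15. Rubcn fell from 95.6, 96.6 and 105 CPM to 79.5, 80.5 and 82.7 CPM (log2 -0.29, FDR 2.97e-05, edgeR). Neither Nbr1 nor Rubcn overlapped between the groups. Sqstm1, another autophagy receptor, rose by 0.18. With scaling factors from genes not called higher the list gave 6 higher and 6 lower, with 6 lower also without Jurkat replicate 1.

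Of the lysosome and phagosome genes 7 of 36 rose and 3 fell (19.4% and 8.33%, against 14.2% and 14.5% of all genes). Ctsz, a lysosomal protease, stood at 477 CPM untreated and 536 CPM with Jurkat cells. That list gave 17 higher under the same scaling, 3 without Jurkat replicate 1, 4 without Jurkat replicate 3 or untreated replicate 3 and 12 without untreated replicate 1. MHC class I and class II genes gave 4 of 33 (12.1%, against 14.2% of all genes) and 3 of 14 (21.4%) higher, and 2 and 1 lower. Under that scaling 7 and 6 were higher. The class I count was 2 without Jurkat replicate 1 or untreated replicate 1 or 3. H2-D1, a class I heavy chain, rose by 0.14 and H2-DMb1, which helps load class II molecules, by 0.17 on the log2 scale, while Ciita, the class II transactivator, fell by 0.19.

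Of the maturation and co-stimulation genes 3 of 28 rose and 1 fell (10.7% and 3.57%), under the 14.2% and 14.5% of all genes. Cd83, a maturation marker, rose from 135, 131 and 132 CPM to 213, 214 and 179 CPM, with no overlap, and Cd274, a ligand of the PD-1 receptor, rose by 0.68 on the log2 scale. Cd40, Cd80 and Cd86, co-stimulatory molecules, were not called. Of the interferon-stimulated genes 0 of 40 rose and 4 fell (10%, under the 14.5% of all genes), with a median of -0.12. Stat2, a transducer of interferon signals, fell from 289, 278 and 301 CPM to 216, 221 and 220.0 CPM (log2 -0.40, SE 0.0663). Oas2, an RNA-sensing enzyme, fell by 0.57, Irf9, the partner of Stat2, fell by 0.17 and Irgm1, an interferon-induced GTPase, fell by 0.34 on the log2 scale. At an unadjusted p under 0.05 1 member was higher, and DESeq2 called 0 higher and 5 lower. A fit of the 6 libraries alone called 14 members lower.

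Of the targets of NRF2, the oxidative stress factor, 10 of 16 rose (62.5%, against 14.2% of all genes) and 0 fell, with a median of 0.25. Osgin1, an oxidative stress-induced growth inhibitor, rose from 5.43, 5.78 and 5.67 CPM to 10.8, 8.90 and 11.6 CPM (log2 0.90), and Srxn1, which repairs peroxiredoxins, rose by 0.54 on the log2 scale. Fth1, the ferritin heavy chain, rose by 0.31, and Txnrd1, thioredoxin reductase, by 0.30. In the stress lists Ppp1r15a, the phosphatase adaptor that ends the integrated stress response, rose from 22.8 to 37.7 CPM. Cebpb, a factor of myeloid activation, rose from 6.84 to 20.3 CPM and stood at 17.7 CPM with OVA. Hspa8, the constitutive cytosolic chaperone, fell by 0.35 with Jurkat cells and fell by 0.36 with OVA on the log2 scale.

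Of the cytoplasmic ribosomal protein genes 8 of 38 rose (21.1%, against 14.2% of all genes) and 0 fell, with Rplp2 rising by 0.22 on the log2 scale. That count was 19 with scaling factors from genes not called higher and 13 without Jurkat replicate 3. It was 1 without Jurkat replicate 1 and 2 without Jurkat replicate 2 or untreated replicate 1 or 3. With OVA, and in KO cells given Jurkat cells, 0 members were called in either direction. Of the replication-dependent histone genes 2 of 19 rose and 8 fell (10.5% and 42.1%, against 14.2% and 14.5% of all genes), with a median of -0.86. Those that fell stood at 0.402 to 1.45 CPM in untreated cells, and Hist1h1d, a linker histone, fell from 1.63, 1.36 and 1.37 CPM to 0.263, 0.339 and 0.657 CPM. With OVA 8 members fell, and Hist1h1d stood at 0.478, 0.245 and 0.468 CPM. Hist1h1c, another linker histone, rose from 10.5, 11.4 and 10.2 CPM to 17.5, 16.7 and 17.4 CPM. Histone genes are near-identical copies, so counts of single members are uncertain. The falls numbered 4 without Jurkat replicate 1 and 5 without Jurkat replicate 2 or untreated replicate 1.

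Of the glycolysis and hypoxia genes 5 of 22 rose and 2 fell (22.7% and 9.09%, against 14.2% and 14.5% of all genes). The rises numbered 9 with scaling factors from genes not called higher. Slc2a1, a glucose transporter, and Vegfa, an angiogenic growth factor, rose by 0.36 and 0.52 on the log2 scale. Of the tubulin, actin and elongation factor genes 6 of 20 rose and 1 fell (30% and 5%, against the same shares of all genes). Tubb4a, a beta tubulin typical of neurons, rose from 0.824, 0.884 and 1.20 CPM to 3.61, 4.72 and 3.14 CPM, and Tubb3, another, by 0.99 on the log2 scale, and their reads may be shared with other tubulins. Of the cell cycle genes 6 of 30 rose and 3 fell (20% and 10%, against 14.2% and 14.5% of all genes). Mki67, a marker of cycling cells, fell from 671, 654 and 683 CPM to 564, 567 and 557 CPM. The cell cycle rises numbered 3 without Jurkat replicate 2 or untreated replicate 1 and 2 without Jurkat replicate 3. Genes known from T-cell leukaemia lines gave 8 of 19 higher and 1 lower (42.1% and 5.26%, against the same 14.2% and 14.5%). Arpp21, an RNA-binding protein of thymocytes, rose by 1.25.

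Markers of cell types in the culture were set beside these lists. Plasmacytoid markers gave 4 of 12 higher, at log2 0.16 to 0.24. Those calls went to 0 without Jurkat replicate 1, to 1 without Jurkat replicate 2 or untreated replicate 1 or 2, and to 2 without untreated replicate 3. Conventional type 1 markers gave 0 of 12 higher and 2 lower (16.7%), and type 2 markers 1 higher and 1 lower (8.33% each). Pan dendritic cell markers, a list that includes Flt3, gave 1 of 10 higher and 4 lower (10% and 40%). With scaling factors from genes not called higher 1 of them was lower, and in KO cells given Jurkat cells 0 were called. Over all genes 14.2% were higher and 14.5% lower. Cd14, a monocyte marker and co-receptor for lipopolysaccharide, stood at 31.5, 30.4 and 28.8 CPM untreated, 53.6, 51.2 and 50.3 CPM with Jurkat cells and 57.8, 53.5 and 55.5 CPM with OVA. B cell markers summed to 33.2 to 36.6 CPM untreated and 33.3 to 36.1 CPM with Jurkat cells. Of the T-lineage markers, Cd4 and Cd28 had log2 fold changes of 0.02 and 0.00 and were not called.

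The same comparison was made in KO cells, whose 6 libraries share none with WT. There 1291 genes were called higher and 1223 lower, or 8.72% and 8.26% of those tested, with 855 higher without KO Jurkat replicate 1. In both genotypes 1942 genes were called, all in the same direction, which is 45.7% of the WT calls and 77.2% of the KO calls. Of the 38 WT rises of at least 2-fold from 1 CPM or more, 37 were called higher in KO. Egr3 stood at 24.9, 23.6 and 25.6 CPM in KO libraries with Jurkat cells, against 4.24 ± 0.376 CPM untreated (SD, n = 3). Tnf reached 133, 98.5 and 131 CPM, from 9.32 ± 0.193 CPM. Acrbp fell from 13.1 ± 1.82 CPM to 7.33 ± 0.647 CPM.

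The mean increase in KO was 0.961 times that in WT for Nr4a1, 0.896 for Egr3, 0.856 for Dusp1 and 1.31 for Tnf. It was 0.605 times for Lef1, 0.537 for Zap70, 0.642 for Lck and 0.580 for the summed T-lineage markers under 1 CPM. In KO Jurkat replicates 1 to 3 Lef1 stood at 12.29, 11.75 and 7.51 CPM and Zap70 at 7.30, 8.05 and 4.97 CPM, both lowest in replicate 3. The median ratio of KO to WT increase was 0.598 over all WT rises and 0.606 over those from at least 1 CPM. It was 0.811 over the 38 of the latter that reached 2-fold. Over all genes tested it was 0.594, with wide quartiles of 0.0278 and 1.07. These genes were named by their WT values, and the ratios carry no test. The difference between the genotypes' responses passed the edgeR test in 1 gene, Nrn1, or 0.00675% of those tested, while 1098 genes had an unadjusted p under 0.05. KO Jurkat replicate 1 stood apart in interferon-stimulated genes, whose summed level was 4035 CPM there and 2556 and 2701 CPM in the other libraries of its group. In that list 24 of 40 members were higher in KO with that library, and 10 higher and 1 lower without it. Maturation genes gave 13 and 5 higher, while immediate early factors gave 16 and 16.

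**Figure D4:**
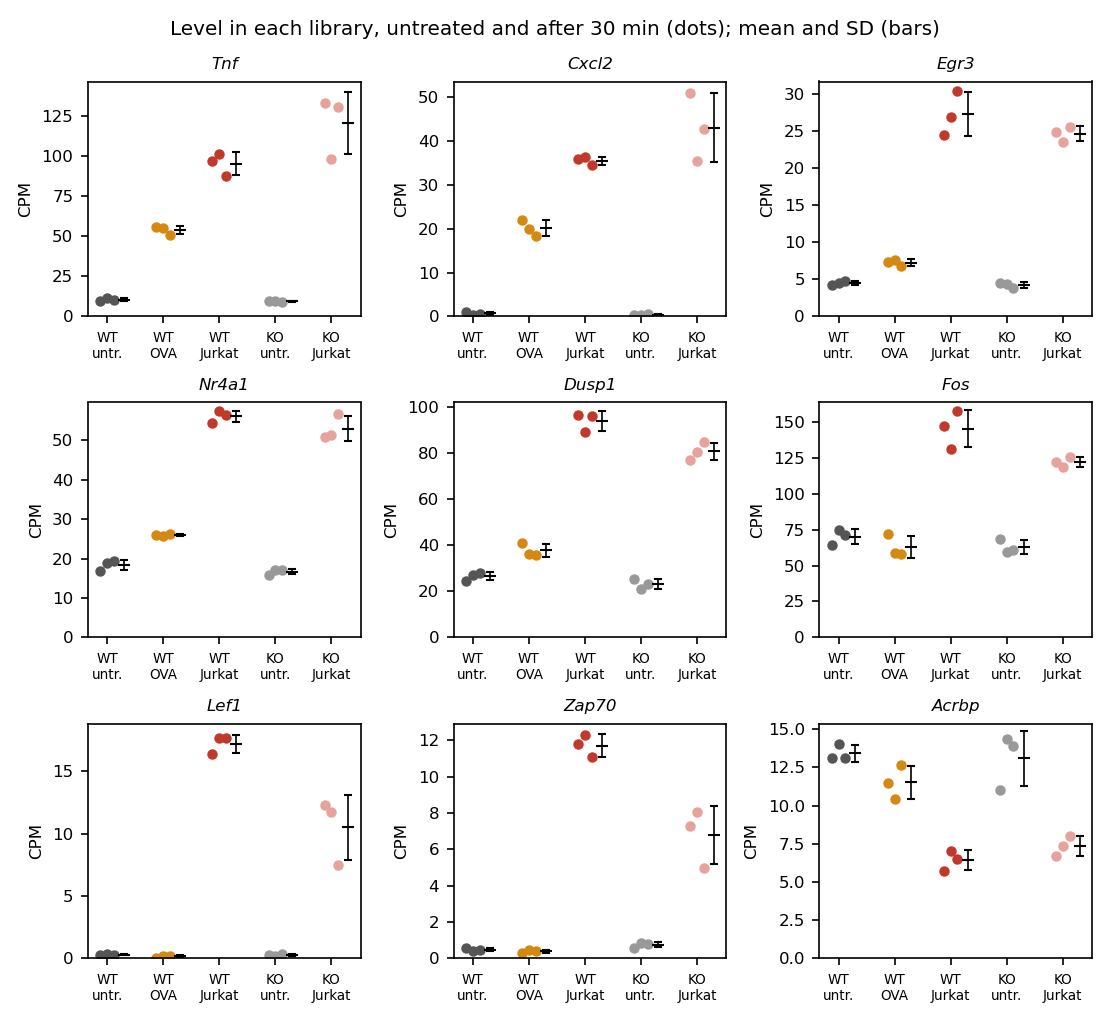
Level in CPM (vertical axes from 0) of 9 genes in each library of 5 groups: WT untreated, WT OVA 30 min, WT Jurkat 30 min, KO untreated and KO Jurkat 30 min. Dots are libraries and bars the mean with SD (n = 3); Tnf and Cxcl2 are high under both stimuli, Lef1 and Zap70 in the groups with Jurkat cells.

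Levels at 4 h are given without a test. After 4 h of Jurkat cells Tnf stood at 1436 ± 43.4 CPM, Cxcl2 at 391 ± 13.98 CPM and Ptgs2 at 282 ± 31.4 CPM, all above the 30 min levels. Nfkbia, Tnfaip3 and Zfp36 stood at 1141, 1107 and 1096 CPM. Egr3, Nr4a1 and Fos stood at 17.9 ± 0.701, 43.4 ± 0.664 and 102 ± 2.17 CPM, with means between the untreated and the 30 min Jurkat means. Lef1 and Zap70 stood at 38.4 ± 4.28 and 35.2 ± 7.29 CPM. With OVA at 4 h Tnf stood at 56.98 CPM and Cxcl2 at 15.3 CPM.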

How the data were processed

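RNA was sequenced from FLT3L-derived dendritic cells (30 libraries, 10 groups). The deposited values are whole-number read counts per gene with mm10 coordinates, per the file headers. The submitters' processing notes name STAR 2.5, Subread, featureCounts 1.5.0-p1 and DESeq2. No label or header names the annotation, the strand setting or a step for human reads, and overlapping or near-identical genes are uncertain.

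Counts were scaled by TMM and filtered with filterByExpr. edgeR 4.0.16 (R 4.3.3) fitted 1 quasi-likelihood model to all 30 libraries, with each group its own mean (F test, FDR under 0.05 over 14808 genes). SE is the fold change over the root of F. The scripts were tested on simulated data. Totals of 42324962 to 50805786 counts in the 6 compared libraries set the precision. The model also held KO OVA 30 min replicate 3, with 9734778 counts. TMM factors were 0.765 to 0.842 in the 4 h Jurkat libraries, against 1.04 to 1.05 in the 6 compared.

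Members and lists were chosen with earlier results of these data known. Named genes were the 8 largest rises from at least 1 CPM, the 6 largest from below it and the 8 largest falls, reaching 5 CPM without overlap; up to 4 called members of each list by smallest p; and the 4 largest differences from OVA each way. Others were named to show a list, or after their values were seen. Alternatives were other scalings, filters, a replicate block, smaller fits, DESeq2 1.42.0 and leaving out each library. Replicates differed by more than sampling noise.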

Additional observations from a re-analysis of the deposited data

Results flagged for a closer look

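Nrn1, which encodes neuritin, was the only gene whose response to Jurkat cells at 30 min differed between the genotypes by the interaction test of edgeR (KO minus WT, log2 -2.82, SE 0.463, FDR 0.0219). It stood at 0.0891, 0.0862 and 0.0612 CPM in untreated WT, 1.47, 2.12 and 1.61 CPM in WT with Jurkat cells, 0.420, 0.580 and 0.461 CPM in untreated KO and 1.73, 1.55 and 1.15 CPM in KO with Jurkat cells. Its untreated WT libraries held 3 to 4 counts each. The FDR by edgeR was 0.106 to 0.130 without any of the 3 untreated WT libraries, 0.0641 without WT Jurkat replicate 2, and 0.0890 and 0.0628 without untreated KO replicate 2 and 3. In a fit of the 12 libraries alone it was 0.0714.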

How the results depend on the processing

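The 4247 WT calls became 3182 to 4465 under the other scalings, filters, fits and tests and 3020 to 4081 without single libraries. Of the 132 genes named by the rule, 0 changed sign and 28 lost their call under at least 1 of 15 alternatives. The direct comparison with OVA gave 2990 to 3764 calls, and 2596 to 3520 without single libraries. KO calls (2514) numbered 1460 in a fit of the 6 compared libraries alone and 1674 to 2369 without single libraries, the lowest without KO Jurkat replicate 1. OVA calls (1578) numbered 833 in such a fit and 903 to 1847 without single libraries, the lowest without OVA replicate 1. The 1 call for the difference between genotypes, Nrn1, became 7 calls with no filter on low counts and 22 by DESeq2. Nrn1 had no FDR by DESeq2 and was not among the 22, of which 21 had the higher response in KO. The count was 0 at the stricter filter, where Nrn1 was not tested. It was also 0 in a fit of the compared libraries alone and without the 4 h Jurkat groups. Without single libraries the count ranged from 0 to 81, the highest without KO Jurkat replicate 2. KO calls were 67.2% higher with scaling factors from genes not called higher, against 51.4%. That setting leaves out rises alone, so the direction of its shift was fixed in advance. The ratio of 8.33 for T-lineage markers under 1 CPM was 1.20 over all 28 members tested and 8.20 to 8.42 without single libraries. Deviations of libraries with the same replicate number correlated at 0.04, 0.013 and 0.058, and of those with different numbers at -0.063 to 0.02. With 3 libraries a group these values cannot tell whether replicate numbers pair the libraries. The replicate block gave 4369 WT calls. Smaller fits hold fewer samples, and the cause of the other shifts was not tested.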
